A study of Homo sapiens with 6 samples.

Results

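The replication-dependent histone genes were taken as every gene whose symbol begins with HIST1H, HIST2H, HIST3H or HIST4H, leaving out 13 rows with PS in the name. The rule found 76 of the 57773 genes in the table: 6 for the linker histone H1, 17 for H2A, 23 for H2B, 15 for H3 and 15 for H4. Of these, 55 belong to the HIST1 cluster on chromosome 6, 16 to HIST2 and 4 to HIST3 on chromosome 1, and 1, HIST4H4, lies alone on chromosome 12. GENCODE release 29 annotates 70 of the 76 as protein coding and 6 as pseudogenes (HIST2H2BA, HIST2H2BB, HIST2H2BC, HIST2H2BD, HIST3H2BA and HIST2H3DP1).

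These genes supply the core histones H2A, H2B, H3 and H4, around which DNA winds in the nucleosome, and H1, which binds the linker DNA between nucleosomes. They are transcribed in clusters, mainly in S phase, when new DNA must be packaged. Most of their messages end in a conserved stem-loop instead of a poly(A) tail. The stem-loop-binding protein SLBP and the U7 small nuclear ribonucleoprotein form that end, and the messages are degraded quickly when replication stops. Some of the genes are also known to give polyadenylated messages.

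The study compared gene expression between 3 libraries labelled as a TRDMT1 knockdown and 3 labelled as its control, all from HEK293, an established line of human embryonic kidney origin. The TRDMT1 enzyme methylates cytosines in RNA. The labels name no knockdown agent and do not say whether the libraries came from separate cultures, so a p-value here measures only library-to-library spread, which may be technical. The protocol in the labels describes total RNA depleted of ribosomal RNA, a methylation kit treatment and stranded library preparation.

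Library totals ran from 24776040 to 40088993 counts. TRDMT1 itself went against the labels: its counts were 221, 225 and 245 under the knockdown label and 99, 93 and 80 under the control label (log2 fold change 0.61 ± 0.21 SE, adjusted p = 0.0705, edgeR). In the deposited table the columns of the libraries titled as knockdown carry the letter C and those of the controls the letters TK, which also reads opposite to the titles, although no source used here explains the letters. All directions here are those of the libraries as labelled, and each would turn if the labels were exchanged. All 8 HEK293 markers were detected and none was called, with summed levels of 567 to 587 RPKM in the knockdown and 662 to 732 RPKM in the control libraries. The 11 listed markers of other cell types summed to 4.30 to 4.74 RPKM in the knockdown and 0.72 to 5.13 RPKM in the control libraries, with HBB at 0 and PTPRC, CD3E and CDH5 at or near 0. COL1A1 made up most of these sums, and COL1A2, at 0.34 to 0.40 RPKM in the knockdown libraries and 0 in the controls, was called higher. Control replicate 2 stood apart from the other controls. GAS5 and SNHG1, which host small nucleolar RNAs, were at 457 and 292 CPM there (counts scaled to a common library total), against 75.2 to 95.7 and 74.8 to 91.97 in the other 5 libraries, and its scaling factor was 0.812 against 0.997 to 1.07. The main histone results are given with and without it.

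The 3′ stem-loop is the feature these messages share, so its forms are shown first. A hairpin of 16 bases, with a 6-pair stem beginning GG and a 4-base loop beginning TT, was looked for on the sense strand of the GENCODE transcripts. It was found in 33 of the 75 members with a transcript sequence, or 44.0%, against 716 of 58676 genes of any kind, or 1.22%. The 5 forms found are written here with the stem in capitals and the loop in lower case.
Form of 17 genes (5 H2A, 9 H2B and 3 H3): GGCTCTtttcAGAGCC
Form of 5 genes (3 H2B and 2 H3): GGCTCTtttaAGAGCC
Form of 5 H4 genes: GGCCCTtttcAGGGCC
Form of 3 H4 genes: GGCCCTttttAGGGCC
Form of 3 genes (1 H2A and 2 H2B): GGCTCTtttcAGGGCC

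All 8 H4 genes with the hairpin carried a stem beginning GGCCCT, and none of the 25 H2A, H2B and H3 genes with it did. In 20 of the 33 genes the annotated transcript ran on for more than 100 bases past the stem-loop. HIST3H2A, the H2A gene with the highest level, had 390 annotated bases after it, and HIST1H3H, the leading H3 gene, had 769. No hairpin was found in the annotated transcripts of HIST1H1C and HIST1H2BK. The HIST1H2BK transcript in GENCODE was 381 bases long, against an exonic length of 820 bases in the deposited table, so the letters searched were not the whole of what was counted. The same held for 36 of the 42 members without the hairpin, whose longest annotated transcript was shorter than the exonic length in the table, and for 12 of the 33 with it. The 44.0% therefore describes the annotated transcripts only.

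Promoters were available in RefSeq (GRCh38.p14) for 60 of the 76 genes, as the 250 bases before the transcription start. Motifs of 4 kinds were searched there: TATAAA on the gene's own strand, and CCAAT, the octamer ATTTGCAT and the H1 box AAACACA on both strands. None of these letter strings holds another. TATAAA was present in 36 of the 60 promoters (60%) against 7.17% of 27305 promoters of all genes, and CCAAT in 50 (83.3%) against 33%. CCAAT stood in every H1, H2A, H2B and H3 promoter examined but in 3 of 13 H4 promoters. The octamer was found in 21 promoters (35.0%) against 1.66% of all genes, in 11 of 16 H2A, 9 of 13 H2B and 1 of 12 H3 promoters, and in no H1 or H4 promoter. The H1 box was in 6 of 6 H1 promoters and in none of the other 54 histone promoters, against 4.95% of all genes. A match describes the letters and is not a measured binding site.

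The promoters of the 3 genes with the highest levels are printed 5′ to 3′ on the gene's strand, with the motif matches on either strand in capitals. All are on the minus strand of GRCh38.p14: HIST3H2A at chr1:228457874-228458123, HIST1H2BK at chr6:27146859-27147108 and HIST1H1C at chr6:26056471-26056720.
HIST3H2A: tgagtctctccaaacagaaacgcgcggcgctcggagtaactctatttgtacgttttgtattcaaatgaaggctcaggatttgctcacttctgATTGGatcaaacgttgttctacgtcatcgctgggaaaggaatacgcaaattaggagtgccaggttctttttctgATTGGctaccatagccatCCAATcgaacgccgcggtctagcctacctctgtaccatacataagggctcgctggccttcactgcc
HIST1H2BK: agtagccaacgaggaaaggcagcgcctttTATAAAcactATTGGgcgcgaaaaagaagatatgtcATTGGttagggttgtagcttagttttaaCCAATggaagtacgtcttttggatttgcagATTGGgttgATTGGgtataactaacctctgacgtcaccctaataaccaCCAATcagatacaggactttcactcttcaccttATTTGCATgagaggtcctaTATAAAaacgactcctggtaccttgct
HIST1H1C: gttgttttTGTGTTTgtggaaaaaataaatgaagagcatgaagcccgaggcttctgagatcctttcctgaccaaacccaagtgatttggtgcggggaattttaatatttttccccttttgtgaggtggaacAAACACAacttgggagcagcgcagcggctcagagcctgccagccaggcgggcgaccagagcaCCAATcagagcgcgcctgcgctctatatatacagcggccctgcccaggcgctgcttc
HIST3H2A held 3 CCAAT matches and none of the other motifs. HIST1H2BK held 2 TATAAA, 6 CCAAT and 1 octamer match. HIST1H1C held 1 CCAAT and 2 H1 box matches.

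The histone genes were low as a group, and a few of them carried most of the signal. Levels are given as RPKM, the count scaled by exon length and library total, which allows genes of different length to be compared. The median gene had a mean of 0.37 RPKM over the 6 libraries, 42 of the 76 stayed under 1 RPKM in every library, and 6 had no count in any (HIST1H2BA, HIST1H2BI, HIST2H3D, HIST2H2AB, HIST2H2BB and HIST1H4F). A count of 0 allows up to 3 counts, or 0.0748 to 0.121 CPM in these libraries, and covers counting error only. Means of 1 RPKM or more were reached by 23 genes, and of 10 RPKM or more by 4: HIST3H2A, HIST1H2BK, HIST1H1C and HIST1H3H. The first 3 of these held 77.2 to 80.2% of the summed RPKM of all 76 genes in 5 libraries and 89.4% in control replicate 2.

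**Figure D1:**
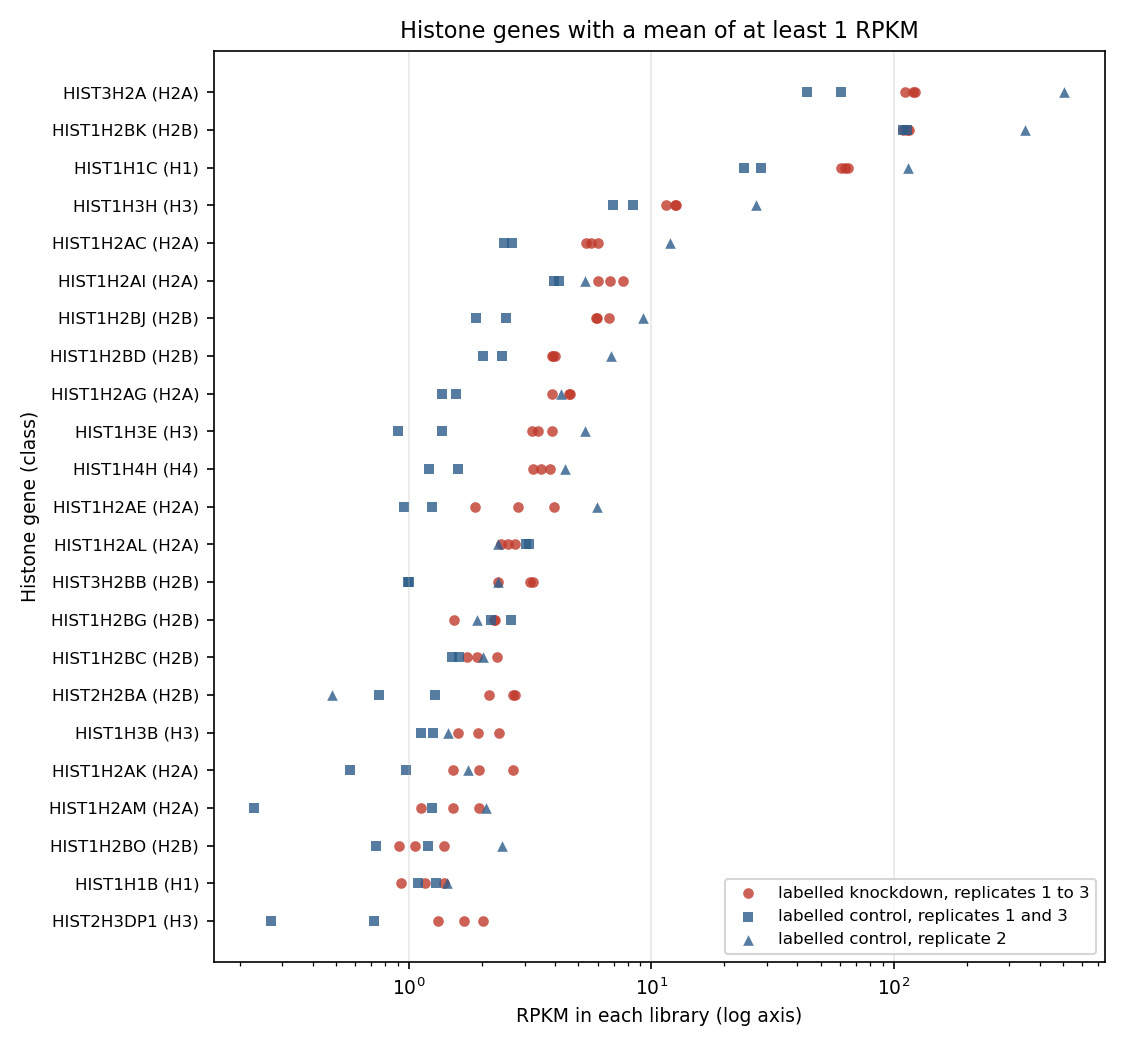
Levels of the 23 histone genes whose mean reached 1 RPKM, one point per library on a log axis, with control replicate 2 as a triangle. For HIST3H2A, HIST1H1C, HIST1H3H and HIST1H2AC the 3 knockdown libraries sit together between control replicates 1 and 3 on the left and control replicate 2 on the right; HIST2H3DP1 was at 0 in control replicate 2 and has no point there.

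Within each class 1 gene led. HIST1H1C gave 93.7 to 98.2% of the H1 RPKM, HIST3H2A 73.6 to 93.6% of H2A, HIST1H2BK 82.0 to 92.3% of H2B, HIST1H3H 54.2 to 73.8% of H3 and HIST1H4H 31.3 to 36.8% of H4. The leading gene thus had its smallest share in H4. The 6 genes also known for polyadenylated messages (HIST1H1C, HIST1H2AC, HIST1H2BC, HIST1H2BD, HIST1H2BK and HIST2H2BE) made up 49.1 to 50.3% of the summed RPKM in the knockdown libraries and 58.6%, 44.6% and 62.0% in control replicates 1, 2 and 3.

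Together the 76 genes summed to 261, 279 and 268 CPM under the knockdown label and to 181, 719.97 and 167 CPM under the control label. The 3 knockdown libraries thus lay close together, above control replicates 1 and 3 and well below control replicate 2. The ratio of the group means was 0.756 with all 6 libraries and 1.55 without control replicate 2, so that 1 library set its direction. These are bulk values, in which the share of cells in S phase and the histone message per cell cannot be told apart.

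In every class the knockdown libraries lay above control replicates 1 and 3 and below control replicate 2. H1 summed to 46.6 to 49.4 CPM in the knockdown libraries and to 22.2, 85.8 and 18.99 in control replicates 1, 2 and 3. H2A was at 82.98 to 89.6 in the knockdown libraries against 44.7, 290.1 and 35.5. The H2B sums differed least from control replicates 1 and 3, at 112 to 119 in the knockdown libraries against 104, 314 and 103. H3 ran from 9.55 to 11.2 against 6.57, 17.96 and 5.97, and H4 from 8.13 to 9.64 against 3.17, 11.8 and 3.92.

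**Figure D2:**
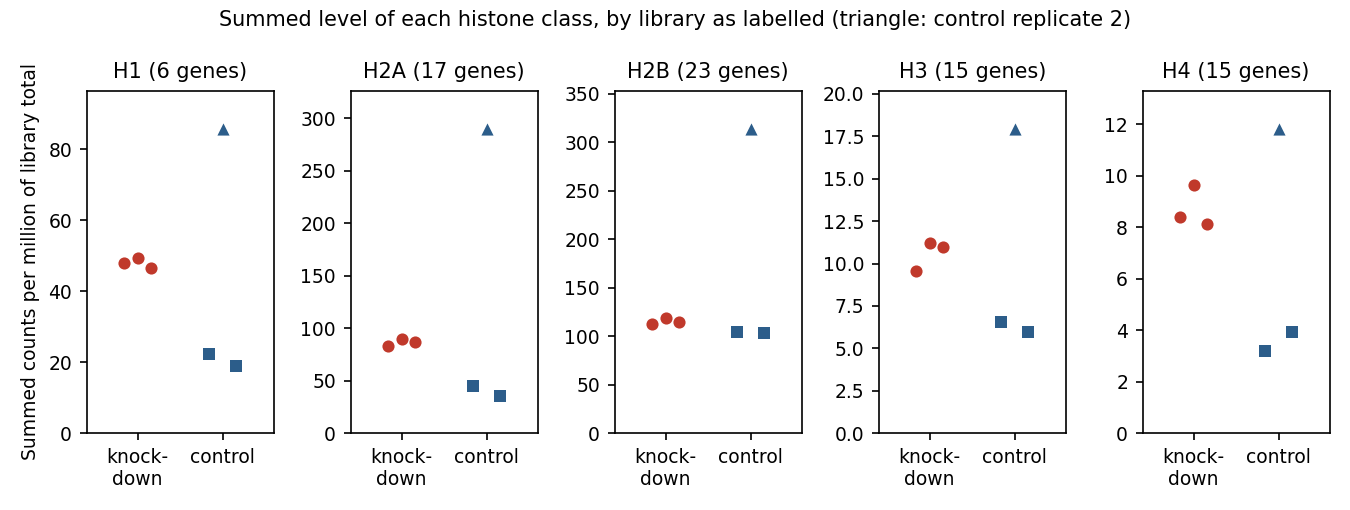
Summed CPM for each histone class, scaled to the library total, one point per library as labelled, each panel with its own axis from 0. In all 5 classes control replicate 2 (triangle) is the highest library and control replicates 1 and 3 (squares) are the lowest.

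With all 6 libraries, 2 histone genes rose and none fell. Of the 76, 33 passed the filter on low counts, and the 43 that did not had 0 to 65 counts over all 6 libraries, with a median of 5. HIST2H2BA and HIST4H4 were called higher at an adjusted p under 0.05 in edgeR's quasi-likelihood test, 2 of 33 against 9.29% of all 17805 genes tested. None of the 33 was called lower, against 14.7% of all genes. At an unadjusted p under 0.05 in edgeR there were 5, and 1 of these, HIST1H3F, was lower. DESeq2 gave an adjusted p for 32 and called 3 higher and 0 lower, against 13.8% and 18.5% of all 17800 genes. HIST3H2A, the gene of highest level, had no adjusted p there. The median log2 fold change of the 33 was 0.02, against -0.04 over all genes. On CPM scaled as in the test, every knockdown library was above every control library in 4 of the 33 (23.9% of all genes). In 2 every one was below (26% of all genes). Among the 4 were HIST2H3DP1, also 1 of the 3 called by DESeq2, and HIST1H1E. Both needed the knockdown libraries, where they are high, to pass the filter, so their values are no support for a rise.

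Without control replicate 2, 37 histone genes could be tested, 19 rose and 2 fell. That compares with 22.9% of all 18693 genes called higher and 25.6% called lower under the same fit, since the call rate rose across the whole table. The median log2 fold change of the 37 was 0.92, against 0.005 over all genes. Of the 37, 4 passed the filter only in this fit, among them 1 of those called higher (HIST1H4B) and 1 called lower (HIST1H2AH), each of which passed through the group where it is high. Of the 33 genes tested in both fits, 18 were called higher and 1 lower. Of these, HIST1H4E, HIST1H2AK, HIST2H3DP1 and HIST1H3F, the 1 lower, also needed the group where they are high to pass the filter in this fit. Their calls are no support for a direction. Leaving out control replicate 3 gave 3 calls higher, against 12.4% of all genes. Leaving out control replicate 1 or any 1 knockdown library gave none in either direction. Over all genes, calls fell to 3.64% higher and 7.32% lower without control replicate 1. Without 1 knockdown library they fell to between 1.71 and 1.94% higher and between 4.96 and 5.43% lower. Both HIST2H2BA and HIST4H4 lost the call in each of those last 4 fits, with adjusted p from 0.0646 to 0.118, as calls fell across the whole table.

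Control replicate 2 was the highest of the 6 libraries for 20 of the 33 tested genes, or 60.6%, against 33.5% of all genes. Its level was above the mean of the other controls in 26 of the 33 and at least 2-fold above in 20, with a median ratio of 3.14; over all genes the median ratio was 0.985 and 10.1% were at least 2-fold above. HIST1H4E had the highest ratio, 13.6, followed by HIST3H2A at 12.0. For 7 genes the ratio was under 1: HIST1H2BG, HIST1H2AL, HIST4H4, HIST1H1E, HIST1H3F, HIST2H2BA and HIST2H3DP1. All 3 knockdown libraries were above both control replicates 1 and 3 for 22 of the 33 genes, against 34.3% of all genes.

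**Figure D3:**
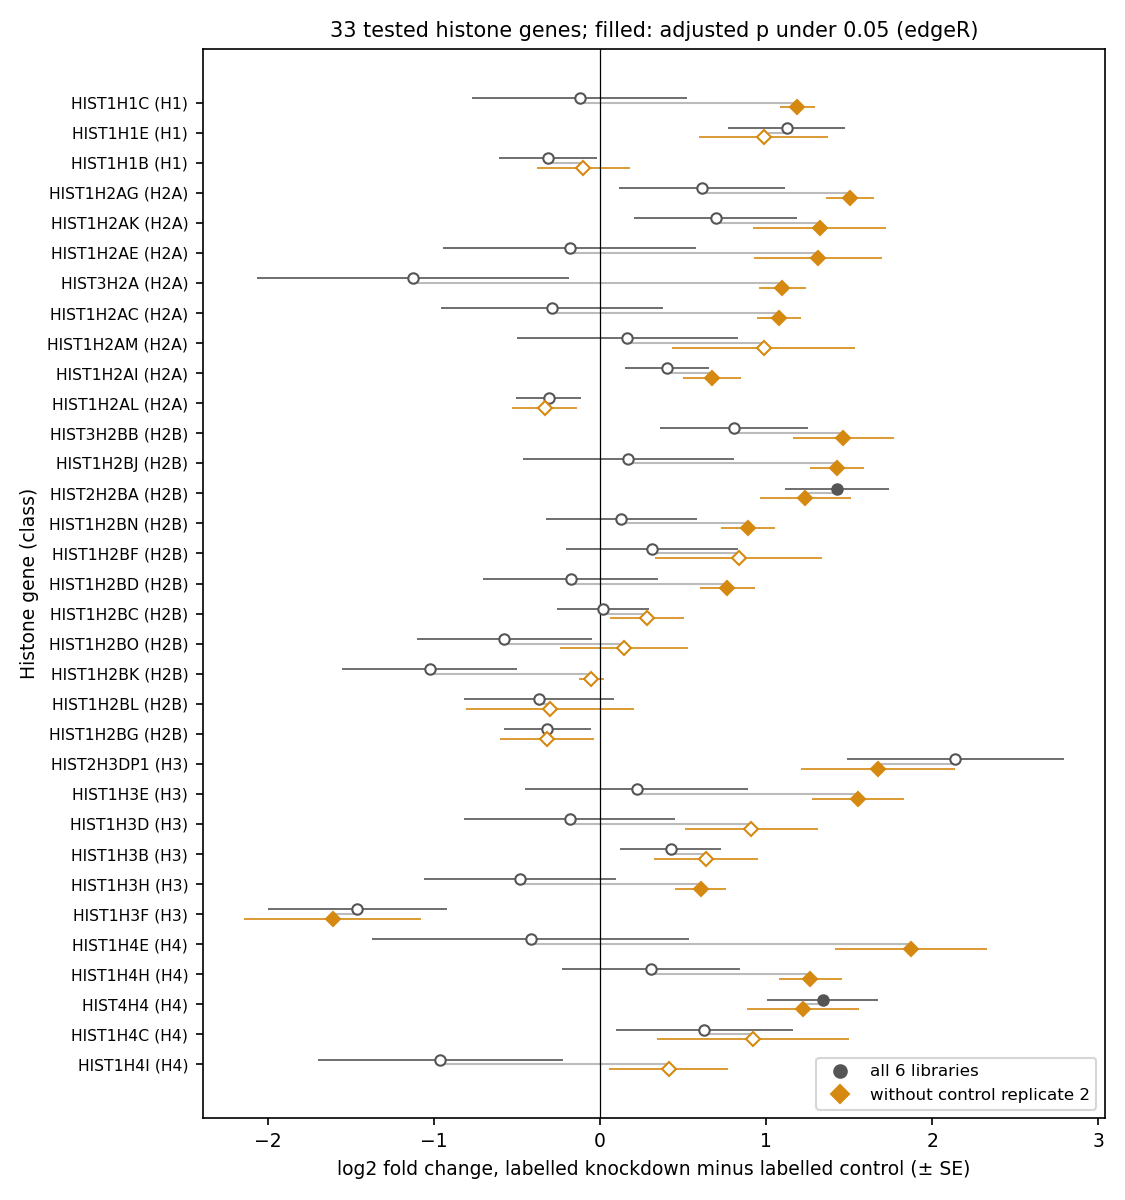
Log2 fold change (labelled knockdown minus labelled control, bars ± SE) of the 33 tested histone genes with all 6 libraries (circles) and without control replicate 2 (diamonds); filled symbols have an adjusted p under 0.05 in edgeR. With all libraries 2 symbols are filled and the values lie on both sides of 0, and without control replicate 2 most move to the right.

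None of the 3 tested H1 genes was called with all 6 libraries, and 1 had an unadjusted p under 0.05. HIST1H1C, the somatic linker histone gene of highest level among the clustered genes, was at 63.1, 64.7 and 60.7 RPKM in the knockdown libraries and 28.3, 115 and 24.2 RPKM in the control libraries. The knockdown values fell inside the range of the controls, with a log2 fold change of -0.12 ± 0.65. Without control replicate 2 they were 2.28-fold higher (log2 1.19 ± 0.11, adjusted p = 2.56e-05). HIST1H1E, another somatic linker histone gene, was at 0.70, 1.07 and 1.21 RPKM against 0.53, 0.26 and 0.43 RPKM. Its groups did not overlap, but the log2 fold change of 1.12 ± 0.35 missed the threshold (adjusted p = 0.0577), as it did without control replicate 2 (adjusted p = 0.0604). With all 6 libraries HIST1H1E needed the knockdown libraries, where it is high, to pass the filter. Its separation in that fit is therefore no support for a rise. HIST1H1B stayed between 0.93 and 1.43 RPKM in all 6 libraries, with overlapping groups and a log2 fold change of -0.31 ± 0.30, or -0.10 ± 0.28 without control replicate 2. The testis gene HIST1H1T and HIST1H1A had at most 1 count in any library.

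No H2A gene was called with all 6 libraries among 8 tested, and none had an unadjusted p under 0.05. HIST3H2A was at 112, 122 and 119.8 RPKM in the knockdown libraries and at 60.9, 506 and 43.9 RPKM in the controls. With control replicate 2 the log2 fold change was -1.13 ± 0.94, and without it 1.10 ± 0.14 (adjusted p = 0.000236), a change of direction set by that library. HIST1H2AC was at 5.66, 6.05 and 5.37 RPKM against 2.67, 11.95 and 2.46 RPKM, and moved in the same way (-0.29 ± 0.67 with it, 1.08 ± 0.13 without). HIST1H2AI was at 7.65, 6.0 and 6.76 RPKM against 3.98, 5.32 and 4.15 RPKM. Here control replicate 2 stayed below all knockdown libraries in RPKM. With the scaling used in the test it was at 3.48 CPM, inside their range of 3.00 to 3.83 CPM. The log2 fold change was 0.40 ± 0.25 with control replicate 2 and 0.67 ± 0.18 without. Of the 50-base windows of HIST1H2AI, 62.3% also occur in another gene's transcripts, so its counts are uncertain.

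Without control replicate 2, 6 of the 8 H2A genes were called higher, against 22.9% of all genes. Beside HIST3H2A, HIST1H2AC and HIST1H2AI these were HIST1H2AG, HIST1H2AE and HIST1H2AK. In that fit HIST1H2AK needed the knockdown libraries, where it is high, to pass the filter, so its call is no support for a rise. HIST1H2AG, at 3.88, 4.57 and 4.63 RPKM against 1.37, 4.24 and 1.57 RPKM, had the largest log2 fold change of the 6 in that fit, 1.5 ± 0.15. HIST1H2AE was at 2.81, 3.98 and 1.87 RPKM against 1.24, 5.98 and 0.95 RPKM, and HIST1H2AK at 2.68, 1.95 and 1.52 RPKM against 0.57, 1.75 and 0.97 RPKM. In all 3 of these genes control replicate 2 reached into or above the range of the knockdown libraries. HIST1H2AL kept a narrow range, from 2.32 to 3.13 RPKM over the 6 libraries, and was not called in either fit (-0.31 ± 0.20 with control replicate 2, -0.33 ± 0.20 without). With the scaling used in the test, every knockdown library (1.29 to 1.48 CPM) was below every control library (1.64 to 1.75 CPM). HIST1H2AH had 6, 9 and 4 counts in the knockdown libraries and 25, 2 and 19 in the controls, with control replicate 2 the lowest of all. It failed the filter with all 6 libraries and passed without control replicate 2 through the other controls, so its call there is no support for a fall. HIST1H2AK shares exonic bases with HIST1H2BN on the other strand, and HIST1H2AL shares exonic bases with HIST1H2BN on the same strand. No source used here says whether the counting used strand.

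Of 11 tested H2B genes 1, HIST2H2BA, was called higher with all 6 libraries, against 9.29% of all genes. It was at 2.68, 2.74 and 2.14 RPKM in the knockdown libraries and 0.75, 0.48 and 1.28 RPKM in the controls, without overlap. The log2 fold change was 1.43 ± 0.32 (adjusted p = 0.0197), and 1.24 ± 0.28 without control replicate 2. HIST2H2BA is annotated as a transcribed pseudogene, and 73.4% of its 50-base windows also occur in another gene's transcripts, so its counts are uncertain. HIST1H2BK, which gave most H2B signal, was at 110, 116 and 113 RPKM against 114, 348 and 109.7 RPKM. Unlike most members it did not move apart when control replicate 2 was left out: the log2 fold change was -1.03 ± 0.53 with it and -0.05 ± 0.07 without (adjusted p = 0.58). In HIST1H2BK 74.1% of the windows of the annotated transcript are shared with other genes.

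HIST1H2BJ was at 5.91, 6.68 and 5.99 RPKM in the knockdown libraries and 1.89, 9.25 and 2.51 RPKM in the controls (log2 0.17 ± 0.64 with all libraries, 1.42 ± 0.16 without control replicate 2). HIST1H2BD was at 4.00, 3.91 and 3.94 RPKM against 2.02, 6.83 and 2.41 RPKM (-0.18 ± 0.53 and 0.77 ± 0.16). In both genes the knockdown libraries lay between the low and the high controls. HIST1H2BN and HIST3H2BB were the other H2B genes called higher without control replicate 2, making 5 of 11, against 22.9% of all genes. HIST3H2BB was at 3.16, 3.25 and 2.32 RPKM against 1.0, 2.32 and 0.99 RPKM, so that control replicate 2 equalled the lowest knockdown library. HIST1H2BG, HIST1H2BC, HIST1H2BF, HIST1H2BL and HIST1H2BO were not called in either fit.

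Among 6 tested H3 genes none was called with all 6 libraries, and 2 had an unadjusted p under 0.05. HIST1H3H was at 11.5, 12.7 and 12.5 RPKM in the knockdown libraries and 8.39, 27.1 and 6.94 RPKM in the controls, with a log2 fold change of -0.48 ± 0.58, and of 0.61 ± 0.15 without control replicate 2. HIST1H3E was at 3.21, 3.42 and 3.89 RPKM against 0.90, 5.33 and 1.37 RPKM (0.22 ± 0.67, and 1.55 ± 0.28 without). HIST1H3B was at 1.92, 2.36 and 1.59 RPKM against 1.12, 1.45 and 1.26 RPKM (0.43 ± 0.30, and 0.64 ± 0.31 without). Its groups did not overlap in RPKM. With the scaling used in the test they did, with control replicate 2 at 0.846 CPM and knockdown replicate 3 at 0.702 CPM. HIST1H3B was not called in either fit. HIST1H3F went the other way, at 0.18, 0.88 and 0.43 RPKM against 1.70, 0.78 and 1.20 RPKM. Its log2 fold change was -1.46 ± 0.54 (adjusted p = 0.0914), and -1.61 ± 0.53 without control replicate 2 (adjusted p = 0.0323). In both fits it needed the control libraries, where it is high, to pass the filter, so its call is no support for a fall.

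HIST2H3DP1, a pseudogene of H3, had 20, 31 and 28 counts in the knockdown libraries and 3, 0 and 8 in the controls. In both fits it needed the knockdown libraries, where it is high, to pass the filter, so its values are no support for a rise. The 0 allows up to 0.291 RPKM in control replicate 2. Its adjusted p of 0.0536 missed the threshold with all libraries and was 0.0151 without control replicate 2, and 62.4% of its windows are shared with other genes. HIST2H3DP1, HIST1H3F and the other histone genes given beyond the 3 of highest level in each class and those called with all 6 libraries were chosen after their values were seen.

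Of 5 tested H4 genes 1, HIST4H4, was called higher with all 6 libraries, against 9.29% of all genes. It was at 0.65, 0.45 and 0.45 RPKM in the knockdown libraries and 0.15, 0.13 and 0.27 RPKM in the controls, from 43 to 61 and from 8 to 19 counts, without overlap. The log2 fold change was 1.34 ± 0.33 (adjusted p = 0.0289), and 1.22 ± 0.34 without control replicate 2. Only 0.16% of its windows are shared, and it carries the stem-loop form of 5 H4 genes shown above. HIST1H4H, which carries the same form, was at 3.24, 3.82 and 3.52 RPKM against 1.21, 4.41 and 1.59 RPKM (log2 0.31 ± 0.54, and 1.27 ± 0.19 without). HIST1H4C was at 1.12, 1.51 and 0.66 RPKM against 0.82, 0.78 and 0.27 RPKM, with overlapping groups (0.63 ± 0.53, and 0.92 ± 0.58 without control replicate 2, not called in either fit). HIST1H4D was not tested with all libraries; it was at 0.82, 0.82 and 0.95 RPKM against 0.51, 1.76 and 0.61 RPKM, and was not called without control replicate 2 (0.55 ± 0.45). In the fit without that library, 3 of the 5 H4 genes were called higher, HIST1H4H, HIST4H4 and HIST1H4E, against 22.9% of all genes. In that fit HIST1H4E, with 6 and 7 counts in control replicates 1 and 3, passed the filter only through the knockdown libraries. Its call is therefore no support for a rise. HIST1H4E was at 0.53, 0.97 and 0.53 RPKM against 0.16, 1.89 and 0.19 RPKM, with control replicate 2 the highest library (-0.42 ± 0.96 with it, 1.87 ± 0.46 without). HIST1H4B, with 10, 13 and 17 counts in the knockdown libraries against 0, 3 and 1, passed the filter only in that fit and through the knockdown libraries, so its call is not counted with these.

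Of the genes listed for histone gene transcription and 3′ end formation, 10 of 32 were lower and none higher with all 6 libraries. Over all genes 14.7% were called lower and 9.29% higher. The median log2 fold change of the 32 was -0.23. CASP8AP2, a protein of the histone locus body needed for 3′ end processing, was at 1.38, 1.73 and 1.5 RPKM in the knockdown libraries and 9.58, 5.80 and 11.7 RPKM in the controls (log2 -2.70 ± 0.20, adjusted p = 0.000506). NPAT, the coactivator of histone gene transcription, was at 0.87, 0.90 and 0.80 RPKM against 2.39, 1.30 and 3.23 RPKM (-1.57 ± 0.25, adjusted p = 0.00708). In both genes control replicate 2 lay nearest the knockdown libraries, without overlap. Both stayed called but with smaller log2 fold changes once trends with base composition and exon length were removed, -1.59 for CASP8AP2 and -0.69 for NPAT.

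NCBP2, a subunit of the nuclear cap-binding complex, fell by 0.78 ± 0.10 on the log2 scale. SNRPF, an Sm-ring protein, fell by 0.85 ± 0.13, but its log2 fold change was 0.07 (adjusted p = 0.692) with the trends removed. ZC3H8 and CCNE2, also called lower with all 6 libraries, lost the call there too (adjusted p = 0.131 and 0.233, edgeR). LSM10 was called lower only there (adjusted p = 0.0396, edgeR, against 0.141 with the trends kept). SLBP was at 54.1, 58.2 and 55.9 RPKM against 65.1, 50.5 and 45.1 RPKM, with overlapping groups (-0.12 ± 0.17). ZNF473, a protein of the U7 particle, was at 7.25, 6.76 and 6.80 RPKM against 4.62, 8.05 and 5.04 RPKM (0.01 ± 0.29), the same order of libraries as the histone genes, and was called higher without control replicate 2 (0.45, adjusted p = 0.00174). Without that library the list had 3 genes higher and 12 lower, against 22.9% and 25.6% of all genes.

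**Figure D4:**
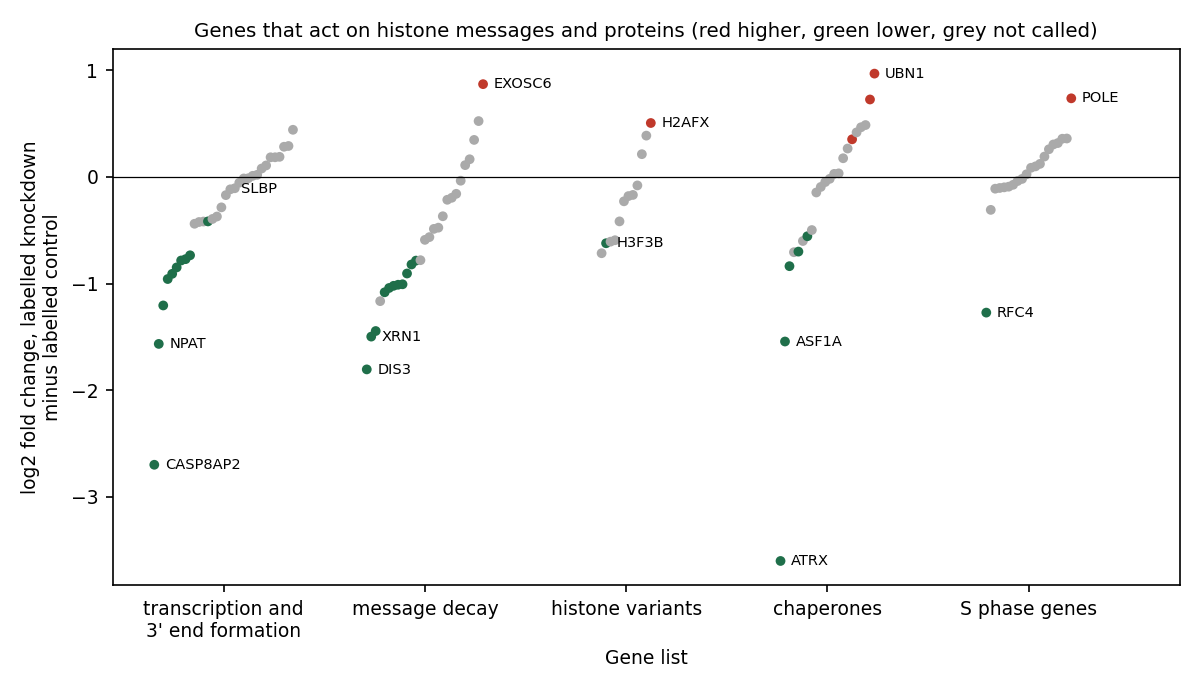
Log2 fold change with all 6 libraries (labelled knockdown minus labelled control) of each tested gene in 5 lists, sorted within each list; red genes were called higher, green lower and grey neither. Green points are most frequent among transcription and 3′ end formation (10 of 32) and message decay (11 of 27).

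Of 27 tested genes listed for the decay of histone messages, 11 were lower and 1 higher, against 14.7% and 9.29% of all genes. The median log2 fold change of the 27 was -0.59. Without control replicate 2, 2 were higher and 15 lower, against 22.9% and 25.6% of all genes. DIS3, a catalytic subunit of the exosome, was at 2.29, 2.58 and 2.11 RPKM against 8.91, 4.43 and 8.76 RPKM (-1.80 ± 0.21, adjusted p = 0.00238, and -1.15 with the trends removed). XRN1, the cytoplasmic exonuclease that works from the 5′ end, was at 1.11, 1.19 and 1.13 RPKM against 2.74, 2.18 and 3.77 RPKM (-1.5 ± 0.16, adjusted p = 0.00171). PNRC2, which promotes decapping, fell by 1.04 ± 0.16 on the log2 scale, but its change was -0.09 (adjusted p = 0.624) with the trends removed. ZCCHC6, EXOSC9 and EXOSC8, also among the 11, lost the call there too (adjusted p = 0.114, 0.690 and 0.0745, edgeR). LSM7, not among the 11, was called lower there (adjusted p = 0.0209, edgeR). EXOSC6, an exosome core subunit, was the 1 gene that rose (0.87 ± 0.14, adjusted p = 0.00686).

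Of 22 histone chaperones, which hand histones to DNA, 3 were higher and 5 lower, against 9.29% and 14.7% of all genes, with a median log2 fold change of -0.03. Without control replicate 2, 5 were higher and 7 lower, against 22.9% and 25.6% of all genes. ASF1A, which carries H3 and H4, was at 7.62, 7.56 and 7.16 RPKM against 23.6, 13.3 and 21.7 RPKM (-1.54 ± 0.17, adjusted p = 0.00164), and lost the call with the trends removed (-0.46, adjusted p = 0.118). ATRX, a remodeller that deposits replacement H3, was at 0.01 to 0.02 RPKM against 0.09 to 0.31 RPKM (-3.60 ± 0.55, or -2.54 with the trends removed). It had 4, 11 and 7 counts in the knockdown libraries against 43, 27 and 103, and was not called by limma on log2(RPKM + 1). ATRX passed the filter only through the controls, where it is high, so its call, 1 of the 5 lower, is no support for a fall. SUPT16H, a FACT subunit, fell by 0.70 ± 0.13 on the log2 scale. CABIN1 and UBN1 of the HIRA complex rose by 0.73 ± 0.17 and 0.97 ± 0.24, and CHAF1B, a subunit of the replication-coupled assembly factor, by 0.35 ± 0.11. SUPT16H, CABIN1, UBN1 and CHAF1B each lost the call when any 1 knockdown library was left out, and CABIN1, UBN1 and CHAF1B also without control replicate 1. Calls fell across the whole table in those fits. CHAF1B further lost it without control replicate 3 (adjusted p = 0.0669), without a filter, with a replicate block and with the trends removed (0.26, adjusted p = 0.094), and CABIN1 was at 0.35 and still called with the trends removed. The 20 S phase replication genes had 1 called higher, the DNA polymerase gene POLE (0.74 ± 0.14, or 0.36 and not called with the trends removed), and 1 called lower, the clamp loader gene RFC4 (-1.27 ± 0.24), against 9.29% and 14.7% of all genes, with a median of 0.05; both lost the call when any 1 knockdown library was left out. When control replicate 2 was left out, 7 of the 20 were higher and 2 lower, against 22.9% and 25.6% of all genes.

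The replication-independent variants, most of which are made throughout the cell cycle from polyadenylated messages, were higher in level than the clustered genes of their class. The ratio of summed RPKM, variants over clustered genes, was 3.42 to 3.76 for H1 in the knockdown libraries and 7.65, 1.90 and 7.27 in control replicates 1, 2 and 3. For H2A it was 4.38 to 4.61 against 8.53, 1.30 and 9.02, and for H3 6.93 to 8.17 against 17.8, 5.53 and 15.1. In all 3 classes control replicate 2 had the lowest ratio and the other controls the highest. Of 12 variants tested, 1 was higher and 1 lower, against 9.29% and 14.7% of all genes. H2AFX, the variant phosphorylated at DNA breaks and known for both stem-loop and polyadenylated messages, was at 269.8, 289 and 315 RPKM against 219, 153 and 175 RPKM (0.50 ± 0.15, adjusted p = 0.0488). H3F3B, a replacement H3 gene, was at 123, 125 and 121 RPKM against 191, 159 and 149 RPKM (-0.62 ± 0.18, adjusted p = 0.044). Both calls were lost when any 1 knockdown library or control replicate 1 was left out, fits in which calls fell across the whole table. That of H2AFX was also lost without control replicate 3 and with the trends removed (0.23, adjusted p = 0.311).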

How the data were processed

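Gene counts and RPKM for 57773 genes came from 1 deposited table. Per the submitters' processing notes the build was hg19 and the tools included bcl2fastq 2.17.1.14 and HTSeq 0.6.1; the aligner, strand setting, annotation and handling of the methylation kit treatment are not given in the sources used here. The authors' deposited counts were whole numbers, summing to 24776040 to 40088993 per library. The authors' deposited RPKM matched counts divided by exonic length and by library total within 0.006 for 100% of values, and the authors' table also gives that length.

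The histone genes and all gene lists were chosen with earlier results of these data known. Counts were tested with edgeR 4.0.16 (R 4.3.3; TMM scaling, filterByExpr, robust quasi-likelihood fit) on all 17805 genes passing the filter, with Benjamini-Hochberg adjustment over all of them and a threshold of 0.05. Fold changes are knockdown minus control as labelled, with standard errors derived from the F statistic. Named histone genes were the 3 of highest mean RPKM in each class and up to 3 of smallest p among those called in each direction; each pathway list gave up to 3 by p in each direction, with SLBP, NPAT, ZNF473 and TRDMT1 always named.

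Alternatives were other scalings, DESeq2 1.42.0, other filters, limma 3.58.1 on log2(RPKM + 1) and log2(RPKM + 0.1), a replicate block, removal of trends with exon length and base composition (mgcv 1.9.3; 98.2% of tested genes had a composition), and leaving out each library. The scripts were tested on simulated data. Libraries were counted separately, since all pairs differed beyond counting noise. Transcripts were from GENCODE release 29 (40 members matched by gene ID, 36 by symbol) and promoters from RefSeq (GRCh38.p14); no coordinates were carried to hg19. In all, 18 members overlap exons of another gene.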

Additional observations from a re-analysis of the deposited data

How the results depend on the processing

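The number of histone genes called was 2 of 33 with the settings reported, all of them higher, against 9.29% of all genes called higher. It was 4 of 33 with upper-quartile scaling (11.3% of all genes) and 5 of 70 without a filter (5.27%). With limma on log2(RPKM + 1) it was 4 of 33 (12.9%) and with the replicate block 1 of 33 (6.21%), all higher. Leaving out 1 library gave 0 to 19 higher, 0 to 2 lower and 0 to 21 in all. Over all genes those fits gave 1.71 to 22.9% higher and 4.96 to 25.6% lower. The replicate numbers did not pair the libraries (correlations of same-numbered deviations -0.04, 0.06 and 0.001), and the replicate block kept the call of HIST2H2BA (adjusted p = 0.0463) and not of HIST4H4 (adjusted p = 0.0627). The median log2 fold change of the tested histone genes ranged from -0.24 to 0.92 when 1 library was left out, and the ratio of the summed histone share, knockdown over control, from 0.597 to 1.55. TRDMT1 kept its direction throughout, and was called with library total scaling (0.80), DESeq2 (0.64), limma on log2(RPKM + 1) (0.25) and log2(RPKM + 0.1) (0.66), and trends with composition and length removed (1.04); leaving out 1 library gave 0.45 to 0.79.

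Several log2 fold changes changed sign, all of them uncalled with the settings reported except that of SNRPF, which had been called lower. With library total scaling HIST1H1C was at 0.17, HIST1H2AC at 0.0019, HIST1H2BD at 0.0782 and SLBP at 0.0654. With limma on log2(RPKM + 1) HIST1H1C was at 0.53, HIST3H2A at 0.0841, HIST1H2AC at 0.29, HIST1H2BD at 0.20, HIST1H3H at 0.0468 and SLBP at 0.0803. With log2(RPKM + 0.1) they were at 0.55, 0.0908, 0.39, 0.28, 0.067 and 0.0819. With the replicate block HIST1H1C was at 0.40, HIST3H2A at 0.0164, HIST1H2AC at 0.24 and HIST1H2BD at 0.10. Removing the exon length trend gave HIST1H1C 0.0803 and ZNF473 -0.0187, and removing both trends gave HIST1H2AC 0.0837, HIST1H2BD 0.20, SNRPF 0.0708 and ZNF473 -0.13.

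When 1 library was left out, the lowest and highest log2 fold changes were -0.52 and 1.19 for HIST1H1C, -1.63 and 1.10 for HIST3H2A, -0.69 and 1.08 for HIST1H2AC, -0.18 and 1.42 for HIST1H2BJ, -0.47 and 0.77 for HIST1H2BD, -0.85 and 0.61 for HIST1H3H, -0.17 and 1.55 for HIST1H3E, -0.00207 and 1.27 for HIST1H4H, -0.28 and 0.0337 for SLBP, and -0.16 and 0.45 for ZNF473.

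The cause of these changes was not tested. The 43 histone genes left untested had low counts; of them HIST1H4A (2.99) and HIST1H4B (2.58) were called higher without a filter, and HIST1H4B and HIST1H2AH were called without control replicate 2. Having 3 libraries a group, with 1 control far from the others, limits the precision of every fold change. Knockdown and control are as labelled, and TRDMT1 counts went against those labels. Near-identical copies and overlapping exons make the counts of several members uncertain.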
